A study of Mus musculus with 9 samples.

Results

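Genes of the GATA1 network of erythroid and megakaryocyte progenitors (Gata1, Zfpm1, Klf1, Gfi1b, Nfe2 and Ldb1) were followed in FDCPmix cells, a mouse multipotent hematopoietic progenitor line that renews itself in IL-3. The members were all probes whose accession is a RefSeq transcript of one of the 6 genes. This gave 7 probes of the 41174 on the array, with 2 for Ldb1 and 1 for each other gene. Probes with accessions of other kinds were not matched to a gene. Each group had 3 arrays. EV cells carried the empty lentivirus, Gata2 KD cells a lentivirus with an shRNA against Gata2, and Pu.1 KD cells one with an shRNA against Pu.1 (gene symbol Spi1). The virus (Lentilox) and its GFP marker were common to all groups, and RNA was taken on day 5 from sorted viable GFP+ cells in self-renewal medium, 150 ng per array. The study describes a gene-specific shRNA for Gata2, and effects of a hairpin on other transcripts cannot be told apart from the loss of its target. Triplicate samples were transduced for each group, and nothing says whether they came from separate parent cultures, so p-values measure only the spread between these samples.

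GATA1 is the zinc finger factor that erythroid and megakaryocytic precursors need to mature. It acts with its cofactor FOG1 (the product of Zfpm1), and it sits in a complex in which LDB1 joins GATA factors to TAL1 and LMO2 and brings distant enhancers to promoters. KLF1 switches on globin and red cell membrane genes, GFI1B is a repressor needed in both lineages, and NF-E2, whose large subunit is encoded by Nfe2, drives globin expression and platelet release. GATA2 comes before GATA1 in progenitors, and PU.1 promotes the myeloid fate and can antagonise GATA1.

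The promoters of the 4 members that changed in Gata2 KD are shown because GATA2 and GATA1 share a short motif. The study reports AGATAAG for both factors, and repeats and palindromes of WGAT (W is A or T) for GATA2 but not GATA1. Those repeats and palindromes were not searched here. RefSeq (GRCm38.p6) promoter entries were found for 5 of the 6 members, all but Nfe2. The windows hold the 250 bases before the annotated start, written 5′ to 3′ on the gene's strand, at chrX:7967911-7968160 on the minus strand for Gata1, chr8:122281891-122282140 on the plus strand for Zfpm1, chr8:84901732-84901981 on the plus strand for Klf1 and chr2:28621983-28622232 on the minus strand for Gfi1b. Capitals mark the GATA motif, searched on both strands as AGATAA and as the 3 variants AGATAG (last letter G), TGATAA (first letter T) and TGATAG (both).
Gata1: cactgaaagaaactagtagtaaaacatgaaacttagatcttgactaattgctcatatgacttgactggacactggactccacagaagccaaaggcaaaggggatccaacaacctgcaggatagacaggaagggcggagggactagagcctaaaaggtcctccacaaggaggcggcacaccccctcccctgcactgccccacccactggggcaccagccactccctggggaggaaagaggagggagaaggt
Zfpm1: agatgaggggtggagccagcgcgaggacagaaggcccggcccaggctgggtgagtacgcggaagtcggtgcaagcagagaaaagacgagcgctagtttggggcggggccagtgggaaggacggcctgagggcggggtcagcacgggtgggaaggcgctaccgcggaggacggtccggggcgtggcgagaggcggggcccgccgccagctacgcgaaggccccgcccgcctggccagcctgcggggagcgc
Klf1: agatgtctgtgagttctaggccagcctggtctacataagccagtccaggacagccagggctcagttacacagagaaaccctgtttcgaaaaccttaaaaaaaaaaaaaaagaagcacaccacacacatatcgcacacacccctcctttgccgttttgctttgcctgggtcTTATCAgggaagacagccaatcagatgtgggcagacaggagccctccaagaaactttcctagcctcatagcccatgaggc
Gfi1b: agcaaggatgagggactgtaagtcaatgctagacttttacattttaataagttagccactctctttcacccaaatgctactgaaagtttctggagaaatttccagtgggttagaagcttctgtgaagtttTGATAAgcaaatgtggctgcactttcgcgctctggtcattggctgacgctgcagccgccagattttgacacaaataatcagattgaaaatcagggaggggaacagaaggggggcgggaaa
The Klf1 window held 1 GATA match, on the opposite strand and 75 to 80 bases before the start, and the Gfi1b window held 1 on the gene's own strand, 115 to 120 bases before it. The Gata1 and Zfpm1 windows held none. Of the windows of Ldb1, which was not called and is not shown, the one at chr19:46037071-46037320 held 2 and the others none. Of 32851 RefSeq windows of this length, 26.5% held a match. The CACCC letters bound by KLF factors were found 2 times in the Gata1 window, 3 times in that of Zfpm1 and 1 time each in those of Klf1 and Gfi1b, against at least 1 match in 52% of all windows, and GGAAGTG, a PU.1 site, in none of the 4 against 8.55%. These are matches of letters, not measured binding.

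All 7 member probes were well above background on all 9 arrays, and no spot was saturated. Between 80.4% and 89.6% of the spots on an array were well above background. The 9 arrays came from 3 slides, each with 1 array of every group, so differences could also be taken within a slide. EV replicate 3 stood apart, with a mean correlation of 0.960 with the other arrays against 0.971 or more for the rest. In these bulk samples fewer cells of a type and less RNA per cell cannot be told apart. The 12 progenitor markers, Kit, Cd34 and Runx1 among them, were all well above background on all arrays. The targeted genes moved as the labels say: Gata2 fell by 1.61 (adjusted p 0.00414) and 1.80 (adjusted p 0.000616) with its 2 probes in Gata2 KD, and Spi1 fell by 1.73 in Pu.1 KD (adjusted p 0.00178). Levels are log2 intensities relative to the 75th percentile of their array, so 0 is that percentile, and they rank arrays for 1 probe but not 1 gene against another. Differences are log2 differences between group means, tested with limma over all 36585 tested probes with Benjamini-Hochberg adjustment, and a probe is called at an adjusted p under 0.05.

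**Figure D1:**
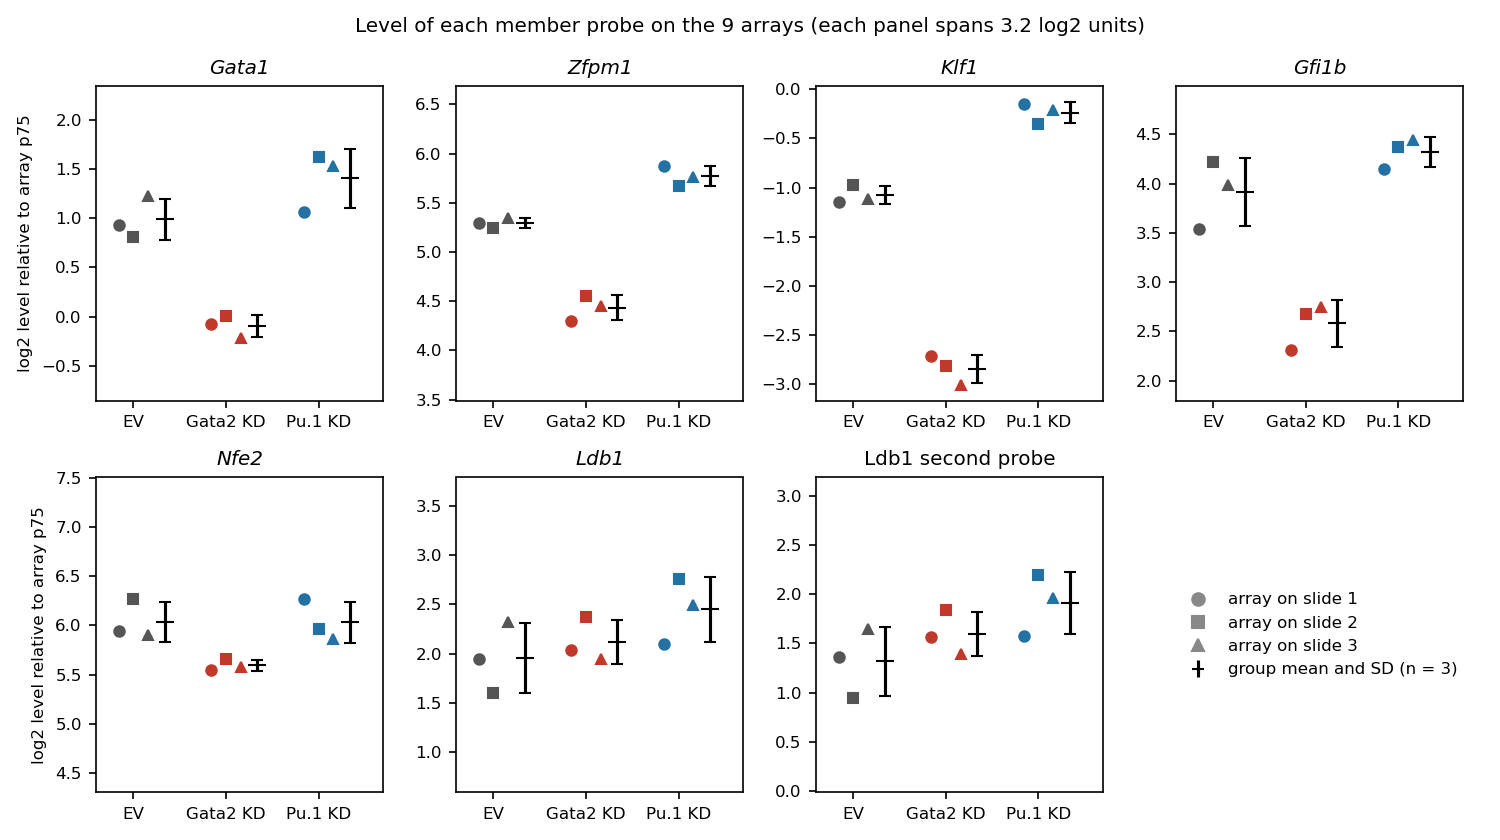
Log2 level of each member probe, relative to the 75th percentile of its array, on the 9 arrays (symbols give the slide), with the mean and SD of each group of 3. The 3 Gata2 KD arrays lie below all other arrays for Gata1, Zfpm1, Klf1, Gfi1b and Nfe2, and the 2 Ldb1 probes overlap between groups.

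In Gata2 KD, 4 of the 6 genes fell: Klf1 by 1.76, Gfi1b by 1.33, Gata1 by 1.08 and Zfpm1 by 0.86 on the log2 scale. No member rose, and Nfe2 and Ldb1 were not called. Among all tested probes 5.2% were called in this comparison and 2.24% were lower, beside 4 of 7 member probes. The median difference of the 7 probes was -0.86, beside -0.09 over all tested probes. The groups did not overlap for 5 of the 7 probes, all lower in Gata2 KD, which was so for 10.9% of all probes.

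Gata1, the central factor, was read by 1 probe spotted 10 times per array, and the SD of its spots within an array was 0.04 to 0.11. Its level was 0.93, 1.22 and 0.81 in EV replicates 1, 2 and 3, and -0.22, 0.01 and -0.07 in the Gata2 KD replicates. The lowest EV array lay 0.80 above the highest Gata2 KD array. The difference was -1.08 with an SE of 0.19 (95% interval -1.52 to -0.65, 2.12-fold lower, adjusted p 0.0128), and within the slides it was -1.0, -0.80 and -1.44. The call was lost without Gata2 KD replicate 1 (-1.02, adjusted p 0.0537) or replicate 3 (-1.09, adjusted p 0.0509) and when arrays were scaled to their median (-1.04, adjusted p 0.0771), and it held without EV replicate 3 (-1.17, adjusted p 0.02).

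Zfpm1, for the GATA1 cofactor FOG1, was among the most even of the members within groups. It read 5.30, 5.34 and 5.24 in EV, where the SD was 0.05, and 4.45, 4.56 and 4.30 in Gata2 KD. The fall of 0.86 with an SE of 0.13 (1.81-fold, adjusted p 0.00611) appeared on every slide, at -1.0, -0.69 and -0.89. It was not called after scaling to the median (-0.81, adjusted p 0.0827).

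Klf1, the erythroid activator of globin genes, had the largest fall of the 6 in the values as processed here, an order that turned with normexp background correction (Klf1 -1.18, Gfi1b -1.31). It read -1.15, -1.11 and -0.97 in EV and -3.00, -2.82 and -2.71 in Gata2 KD. Every array of one group was thus far from every array of the other. The difference was -1.76 with an SE of 0.14 (95% interval -2.08 to -1.45, 3.40-fold lower, adjusted p 0.00016), with -1.56 to -1.89 within the slides. The signal was dim, with a mean processed intensity of 247.0 in EV and 67.8 in Gata2 KD, though each array had it well above background.

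Gfi1b, for the repressor needed in the erythroid and megakaryocytic lineages, read 3.54, 3.98 and 4.22 in EV and 2.75, 2.68 and 2.31 in Gata2 KD. EV varied more here than for the other called members, with an SD of 0.35, and the groups still did not overlap. The difference was -1.33 with an SE of 0.21 (2.52-fold lower, adjusted p 0.00741) and within the slides -1.23, -1.54 and -1.24. Klf1 and Gfi1b were called under all 20 alternative settings.

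Nfe2 read 5.94, 5.90 and 6.27 in EV and 5.58, 5.65 and 5.55 in Gata2 KD. All 3 Gata2 KD arrays lay below all EV arrays, by 0.25 at the closest, and below their slide's EV array. The difference of -0.44 with an SE of 0.16 (95% interval -0.81 to -0.07) was not called (adjusted p 0.228).

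Ldb1, the adaptor of the complex, was read by 2 probes. The brighter read 1.94, 2.32 and 1.60 in EV and 1.94, 2.37 and 2.04 in Gata2 KD, with overlapping groups. The second probe read 1.36, 1.64 and 0.95 in EV and 1.39, 1.83 and 1.57 in Gata2 KD. The differences were 0.16 (95% interval -0.39 to 0.72, adjusted p 0.935) and 0.28 (-0.26 to 0.82, adjusted p 0.789). EV replicate 3 had the lowest level with both probes, and without it the first difference was -0.02 and the second 0.09.

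**Figure D2:**
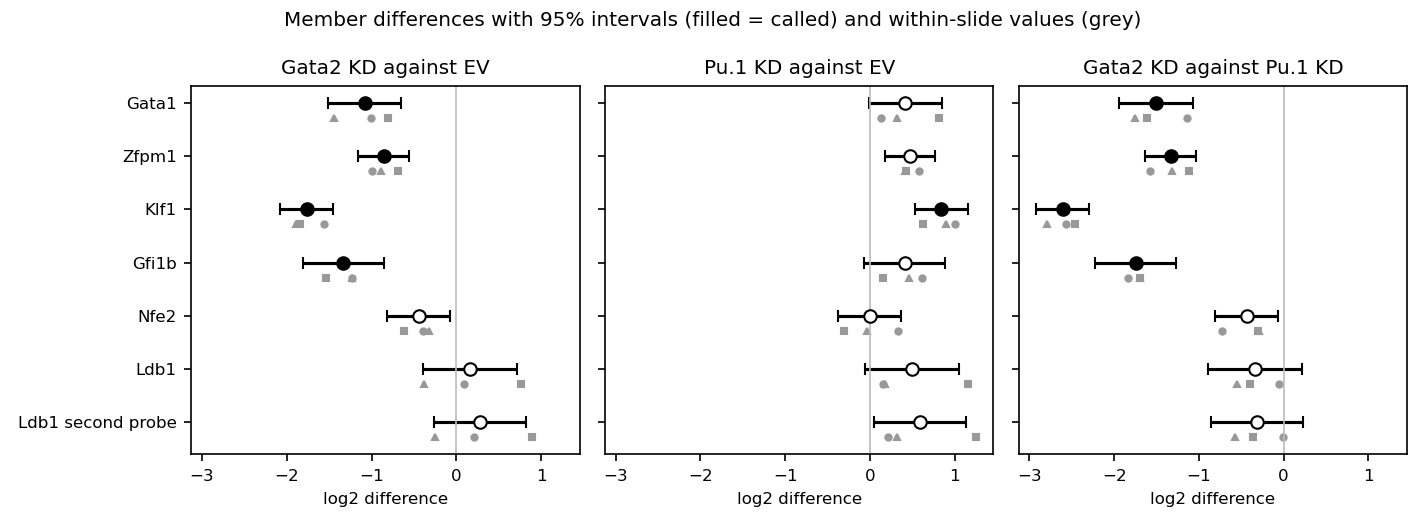
Log2 difference between group means for each member probe in the 3 comparisons, with 95% intervals (filled circles, called at an adjusted p under 0.05), and the differences within slides 1 (grey circle), 2 (square) and 3 (triangle). Gata1, Zfpm1, Klf1 and Gfi1b lie below 0 in both panels with Gata2 KD, and Klf1 is the 1 member called in Pu.1 KD against EV, at 0.84.

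In Pu.1 KD, Klf1 rose by 0.84 on the log2 scale and no other member was called. Over all tested probes 2.7% were called and 1.27% were higher, beside 1 of 7 member probes, and the median of the 7 differences was 0.48 beside -0.04 over all probes. The groups did not overlap for Klf1 and Zfpm1, both higher in Pu.1 KD, which was so for 7.93% of all probes.

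Klf1 read -0.35, -0.21 and -0.15 in Pu.1 KD, above every EV array. The rise had an SE of 0.14 (95% interval 0.53 to 1.15, 1.79-fold, adjusted p 0.0174) and was 1.00, 0.62 and 0.90 within the slides. The sign was the same under all 20 alternatives, from 0.80 to 0.90 when single arrays were left out, but the call was lost in 8 of them. These were the fits without EV replicate 1 (0.0657), EV replicate 2 (0.0699) and Pu.1 KD replicates 1, 2 and 3 (0.0617, 0.0792 and 0.0815, all adjusted p), and those with the replicate block, scaling to the median or only the compared groups.

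Zfpm1 read 5.67, 5.76 and 5.87 in Pu.1 KD, with no array as low as any EV array. The difference of 0.48 with an SE of 0.13 (95% interval 0.18 to 0.77) was not called (adjusted p 0.121). Gata1 read 1.62, 1.54 and 1.06, so that 2 arrays were above all EV arrays and 1 was within their range. Its difference was 0.42 (-0.02 to 0.85, adjusted p 0.435), positive on all 3 slides at 0.13, 0.81 and 0.31. Gfi1b read 4.37, 4.44 and 4.15 and its groups overlapped, with a difference of 0.41 (-0.07 to 0.89, adjusted p 0.523). This difference was positive on all 3 slides at 0.61, 0.16 and 0.46. It was not called with slide as a block in limma either (adjusted p 0.118).

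Nfe2 in Pu.1 KD read 5.96, 5.86 and 6.27, over nearly the same range as EV. Its difference was -0.01 with a 95% interval of -0.38 to 0.37 (adjusted p 1.0), and the sign turned under several settings. Ldb1 read 2.76, 2.49 and 2.09 with the brighter probe and 2.20, 1.96 and 1.57 with the second, differences of 0.49 (-0.06 to 1.05, adjusted p 0.494) and 0.59 (0.05 to 1.13, adjusted p 0.339). The largest of the slide differences, 1.16 and 1.25, were both on the slide of EV replicate 3, and without that array the differences were 0.32 and 0.41.

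Set directly against each other, the knockdowns differed in 4 of the 6 genes, all lower in Gata2 KD. This comparison shares its arrays with the other comparisons. Klf1 was lower by 2.60 (6.08-fold, adjusted p 9.26e-06), Gfi1b by 1.74 (3.35-fold, adjusted p 0.00101), Gata1 by 1.50 (2.83-fold, adjusted p 0.00136) and Zfpm1 by 1.33 (2.52-fold, adjusted p 0.000311). The Klf1 value depended on the background correction and was -1.91 with normexp and -2.18 with the deposited values. All 4 were called under all 20 alternatives and were lower on each slide. The groups did not overlap for these genes and Nfe2, which made 5 of the 7 probes beside 14% of all probes that were lower in Gata2 KD without overlap. In this comparison 9.63% of all probes were called, and 4.77% of all probes were called lower. Nfe2 differed by -0.44 (-0.81 to -0.07, adjusted p 0.172), and the 2 Ldb1 probes by -0.33 (-0.89 to 0.22) and -0.31 (-0.85 to 0.23), none of them called.

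The group means of Gata1, Zfpm1, Klf1 and Gfi1b came in the order Gata2 KD, EV, Pu.1 KD. The Gata1 means were -0.10 ± 0.12, 0.99 ± 0.21 and 1.41 ± 0.30 (SD, n = 3), and the lower 2 groups were apart while EV and Pu.1 KD overlapped. The Zfpm1 means were 4.44 ± 0.13, 5.29 ± 0.05 and 5.77 ± 0.10, with no overlap between neighbours, although the upper step was not called. For Klf1 they were -2.84 ± 0.15, -1.08 ± 0.09 and -0.24 ± 0.10, where both steps were called. For Gfi1b they were 2.58 ± 0.23, 3.91 ± 0.35 and 4.32 ± 0.15, where EV and Pu.1 KD overlapped and the upper step was not called. Nfe2 was lowest in Gata2 KD at 5.59 ± 0.06 and alike in EV at 6.04 ± 0.20 and Pu.1 KD at 6.03 ± 0.21. Ldb1 ran from 1.95 ± 0.36 in EV through 2.11 ± 0.22 in Gata2 KD to 2.45 ± 0.33 in Pu.1 KD, with overlap at each step.

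The closest profiles over the 9 arrays were found among 14219 genes well above background on all of them, by the root mean square difference of centred log2 levels. Those nearest to Gata1 were Ankrd10 at 0.11, C1qtnf1 at 0.16 and Cacnb4 at 0.17, where a flat profile would lie at 0.66. For Zfpm1 they were Myo10 at 0.077, Ccdc102a at 0.09 and Amhr2 at 0.10, against 0.56 for a flat profile. For Klf1 they were Rimkla at 0.15, Slc37a3 at 0.16 and Plscr2 at 0.17, against 1.09, and for Gfi1b P2ry1 at 0.08, Stxbp6 at 0.13 and Snap47 at 0.15, against 0.77. Nfe2 was nearest to Jam2 at 0.072, Msrb2 at 0.087 and Tasp1 at 0.092, but its flat profile lay at only 0.25. Ldb1 was nearest to Gtpbp2 at 0.10, Ncoa5 at 0.12 and Abcf3 at 0.12, with its flat profile at 0.33. No member was among the 3 genes nearest to another member.

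Of the 13 genes for the LDB1 complex and for partners of GATA1, 2 fell and 1 rose in Gata2 KD. The median difference was -0.35, beside -0.09 over the 15808 genes tested, of which 2.95% were lower and 4.21% higher. Gata2, the target of the shRNA, is 1 of the 2 that fell. Tal1, the basic helix-loop-helix partner, fell by 0.64 (adjusted p 0.0367), and Lmo2, the LIM protein that bridges TAL1 and LDB1, rose by 0.93 (adjusted p 0.0342). The Tal1 call held in 8 and the Lmo2 call in 11 of 20 alternatives, both without a change of sign. Of single arrays left out, all but EV replicate 1 ended the Tal1 call, and all but EV replicate 3 and Pu.1 KD replicates 2 and 3 ended that of Lmo2. In Pu.1 KD, where 2.16% of all genes tested were lower and 1.45% higher, 2 of the 13 fell, Lmo4 by 1.48 (adjusted p 0.00699) and the core-binding factor Runx1 by 1.04 (adjusted p 0.037, held in 9 of 20, and of single arrays left out only without EV replicate 1 or Gata2 KD replicate 3), with a median of -0.05 beside -0.04 over all genes.

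None of the 10 tested NuRD subunits, the chromatin remodeller that FOG1 recruits, was called against EV, with medians of -0.15 in Gata2 KD and -0.02 in Pu.1 KD. At an unadjusted p under 0.05 limma counted 3 of the 10 lower in Gata2 KD and 0 in Pu.1 KD, and alternatives called up to 2. Among the 8 genes for the GFI1B corepressor complex and its paralog, Gfi1 rose by 2.06 in Gata2 KD (adjusted p 0.000424) while Gfi1b fell, and none was called in Pu.1 KD by limma (2 at an unadjusted p under 0.05). The shift of Gfi1, a repressor that acts in the granulocytic lineage, was -0.55 there (adjusted p 0.241). The corepressors Kdm1a and Rcor2 differed by -0.58 and -0.87 in Gata2 KD and were not called (adjusted p 0.0556 and 0.0528), and alternatives called up to 2 genes of this list lower (1 without EV replicate 3). None of the 7 tested genes for small Maf partners of NF-E2 and the related CNC and BACH factors was called in either knockdown by limma, with 3 and 2 at an unadjusted p under 0.05. Alternatives called up to 2 of them higher in Gata2 KD (1 without EV replicate 3) and up to 1 lower in Pu.1 KD.

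Over all genes tested, 4.21% were called higher and 2.95% lower in Gata2 KD, and 1.45% and 2.16% in Pu.1 KD. Among 7 tested factors that oppose or flank the GATA1 program, 4 rose in Gata2 KD and none fell. Irf8, which directs monocytic fate, rose by 4.38 (adjusted p 3.47e-06; its second probe by 2.36), Spi1 by 1.39 (adjusted p 0.0012), the macrophage factor Egr2 by 0.86 (adjusted p 0.0492) and Ikzf1 by 0.59 (adjusted p 0.0277). The calls of Egr2 and Ikzf1 each held in 8 of 20 alternatives. Of single arrays left out, the Egr2 call held only without Gata2 KD replicate 3 or Pu.1 KD replicate 3, and that of Ikzf1 in no such fit. In Pu.1 KD, 2 of the 7 fell, Spi1 itself by 1.73 and Cebpa, the granulocytic C/EBP factor, by 0.81 (adjusted p 0.0257, held in 10 of 20, of single arrays left out only without EV replicate 3 or Gata2 KD replicate 1, and not called with its second probe, -0.64).

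**Figure D3:**
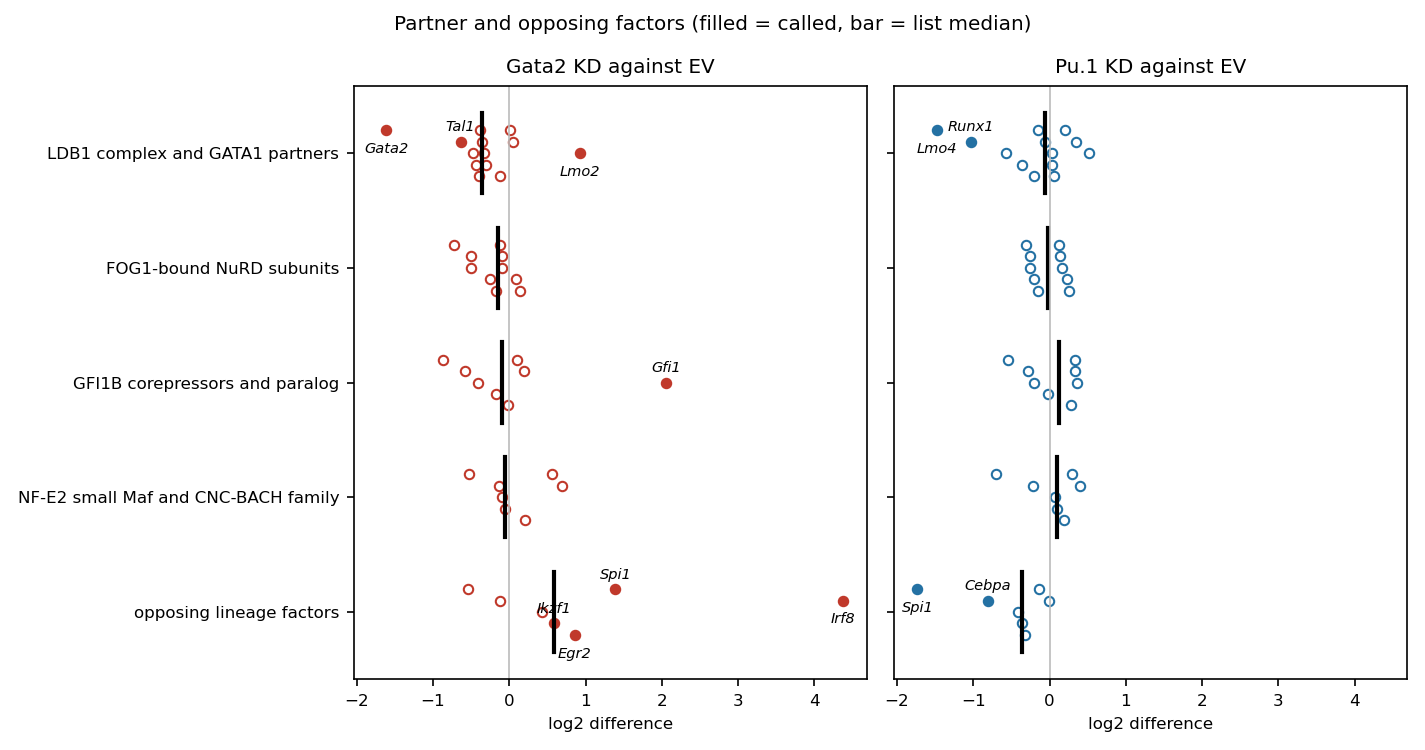
Log2 difference against EV of the tested genes in 5 lists around the 6 members (1 point per gene, filled where called, bar at the list median), for Gata2 KD and Pu.1 KD. The called genes are named, and Irf8 at 4.38 and Gfi1 at 2.06 lie on the other side of 0 from Gata2 at -1.61 in Gata2 KD.

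Erythroid genes, many of them known targets of GATA1 and KLF1, were called in 1 direction in each knockdown. Of 31 tested, 7 fell and none rose in Gata2 KD, with a median of -0.27. Over all genes tested 2.95% were lower and 4.21% higher in this comparison, with a median of -0.09. Named by size of change, the water channel Aqp1 fell by 1.63 (adjusted p 0.0126), Kel, for the Kell blood group protein, by 1.14 (adjusted p 0.0058), the red cell adhesion molecule Icam4 by 1.11 (adjusted p 0.000945) and Car2, carbonic anhydrase 2, by 0.98 (adjusted p 0.0212). In Pu.1 KD, 5 of the 31 rose and none fell, with a median of 0.24, beside 1.45% of all genes higher, 2.16% lower and an all-gene median of -0.04. The risen genes were led by Kel at 2.20 (adjusted p 0.00127), the membrane skeleton gene Add2 at 1.53 (adjusted p 0.0442), Aqp1 at 1.50 (adjusted p 0.0326) and Car2 at 1.13 (adjusted p 0.0196). Of the 20 alternatives, the Aqp1 and Car2 calls held in 16 and 14 in Gata2 KD and in 10 and 12 in Pu.1 KD, and that of Add2, which was not called with its second probe (1.22, adjusted p 0.567), in 9. The globin genes Hba-a1 and Hbb-bt, whose near-identical copies the probes may not separate, were not called in either. The counts ran from 2 to 9 lower in Gata2 KD and from 1 to 8 higher in Pu.1 KD over the 20 alternatives, with none in the other direction, and without EV replicate 3 they were 5 and 3. Of single arrays, Gata2 KD replicates 2 and 3, left out in turn, each brought the first count to 3 and EV replicate 2 to 4. The second count fell to 1 without EV replicate 1 or any of the Pu.1 KD arrays, and to 3 without EV replicate 2 or Gata2 KD replicates 2 or 3.

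Megakaryocyte genes did not move together with the members in Gata2 KD, where 5 of 18 rose and 4 fell with a median of 0.09. Over all genes tested 4.21% were higher and 2.95% lower in this comparison, with a median of -0.09. Thbs1, for the matrix protein thrombospondin 1, rose by 3.08 (adjusted p 2.76e-05), Clec1b by 1.69 (adjusted p 0.00263) and the platelet chemokine Ppbp by 1.65 (adjusted p 0.000537), and the platelet glycoprotein gene Gp5 fell by 1.15 (adjusted p 0.00727). In Pu.1 KD 5 rose and 1 fell, with a median of 0.53, beside 1.45% of all genes higher, 2.16% lower and an all-gene median of -0.04. Pf4, platelet factor 4, rose by 1.62 (adjusted p 0.0124) and Clec1b by 1.1 (adjusted p 0.0377), while Gp1ba, for a chain of the von Willebrand factor receptor, fell by 1.34 (adjusted p 0.00281). The count of risen genes in Pu.1 KD was 5 without EV replicate 3 and 1 to 3 without any other single array, and the Clec1b call there held in 8 of 20 alternatives. The 4 falls in Gata2 KD became 2 to 4 when single arrays were left out.

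Markers of several other lineages, though not the lymphoid ones, differed between the groups, and their part in the member differences was not tested. The study's surface staining found more cells with a myeloid marker after Gata2 knockdown and fewer after Pu.1 knockdown. Over all genes tested, 4.21% were called higher and 2.95% lower in Gata2 KD. In Pu.1 KD these shares were 1.45% and 2.16%. Of 15 neutrophil markers 14 rose in Gata2 KD and 11 fell in Pu.1 KD, and their summed level (log2 of the summed scaled intensities) was 7.93 to 8.09 in EV, 10.2 to 10.4 in Gata2 KD and 6.74 to 6.97 in Pu.1 KD. Over the alternatives 13 to 15 of them rose in Gata2 KD and 6 to 13 fell in Pu.1 KD. Of 11 monocyte and macrophage markers 9 rose in Gata2 KD and 5 fell in Pu.1 KD, with sums of 5.37 to 5.56 in EV, 8.45 to 8.76 in Gata2 KD and 4.12 to 4.31 in Pu.1 KD. The count of 5 ran from 2 to 6 over the alternatives, and was 2 without Pu.1 KD replicate 1 and 3 without replicate 2. Mast cell and basophil markers, which depend on GATA factors too, fell in Gata2 KD in 9 of 14 cases and rose in 1, with sums of 6.11 to 6.39 beside 8.22 to 8.40 in EV. In Pu.1 KD 2 of them rose and 4 fell (0 to 5 over the alternatives), and the sum was 8.28 to 8.43. Of 8 eosinophil markers 3 rose in Gata2 KD and 5 fell in Pu.1 KD, with sums of 1.91 to 2.37 in EV, 3.60 to 4.0 in Gata2 KD and 0.52 to 0.71 in Pu.1 KD. Lymphoid markers were called in 0 (1 at an unadjusted p under 0.05) and 1 of 11 cases by limma, with sums of 1.92 to 2.43 over all arrays, and progenitor markers rose and fell in 3 of 12 cases each in Gata2 KD, with sums of 7.88 to 8.16 beside 7.82 to 8.12 in EV and 7.57 to 7.78 in Pu.1 KD. Gata2, the target of the shRNA, was among the progenitor markers that fell in Gata2 KD. The progenitor markers Tal1, Lmo2 and Runx1 also belong to the list of the LDB1 complex and GATA1 partners. Kit, the 1 mast cell and basophil marker that rose in Gata2 KD, is a progenitor marker too. It rose by 0.75, a call that held in 12 of 20 alternatives. Irf8 is counted both among the monocyte and macrophage markers and among the factors that oppose or flank the GATA1 program. In the erythroid list Rhd, a red cell antigen, was not well above background on any EV or Gata2 KD array.

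**Figure D4:**
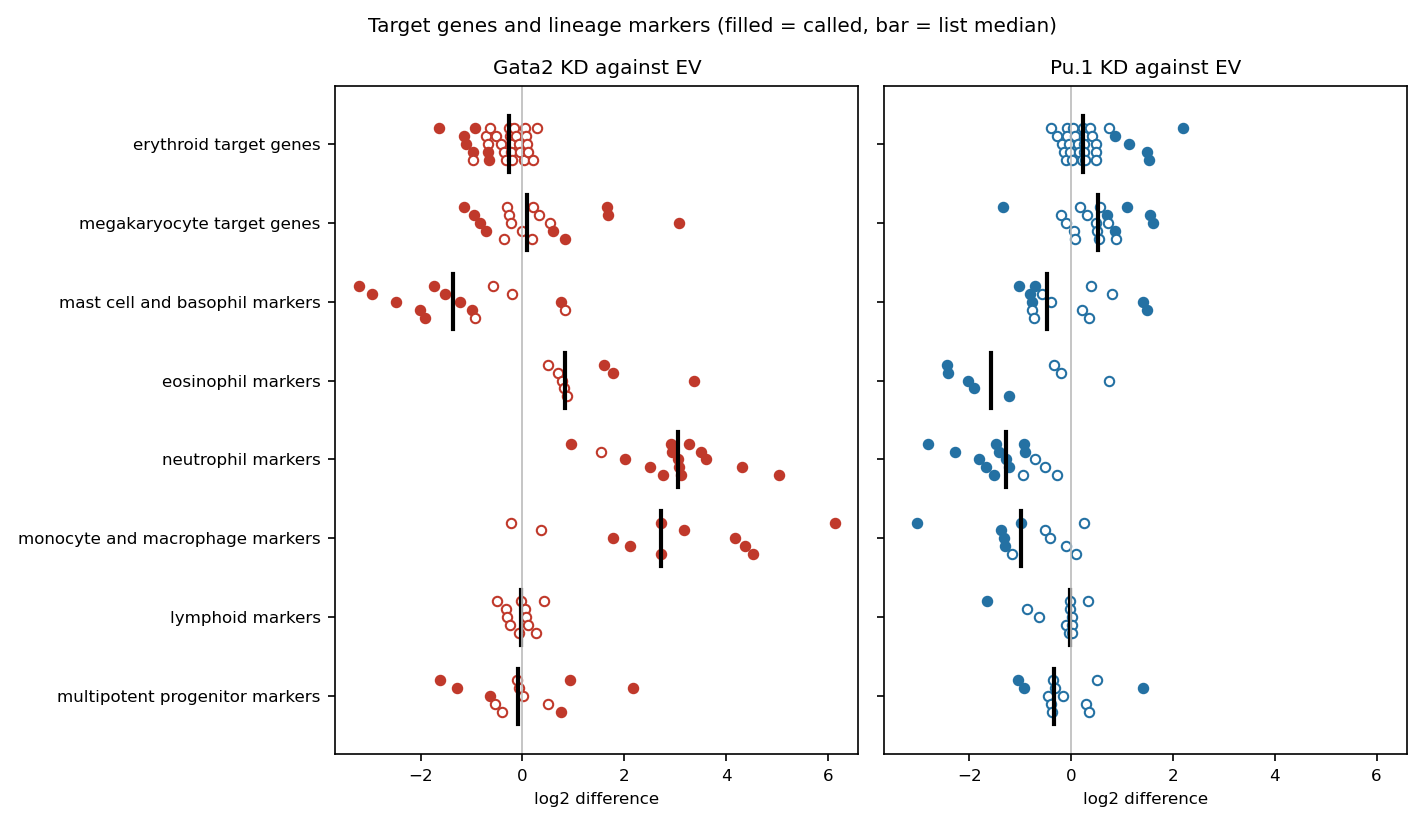
Log2 difference against EV for erythroid and megakaryocyte genes and for markers of 6 other cell types (1 point per gene, filled where called, bar at the list median). The erythroid median lies at -0.27 in Gata2 KD and 0.24 in Pu.1 KD, and the neutrophil median at 3.05 and -1.27.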

How the data were processed

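Cy3-labelled RNA of 9 samples was hybridised to single-colour Agilent mouse arrays (design build mm8 per the file headers). The authors deposited the intensity values of Agilent Feature Extraction 10.1.1.1 (processed signal, background-subtracted within each array; median and background signals), not normalized between arrays. They also deposited a table of log2 values of the same arrays, which follow the log2 median signal at a correlation of 0.997 or more. Its scale is log2 and its medians lie between 7.00 and 7.05, its exact normalization is not given in the sources used here, and it served as an alternative only.

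Log2 processed signals were averaged over the spots of a probe, without control spots and spots flagged as outliers (47 to 96 per array), and the array's 75th percentile was subtracted. Probes were tested where well above background on at least 3 of 9 arrays (at least 50% of a probe's spots) with 2 or more values per group, 36585 of 41174. Accessions, without versions, were matched to RefSeq genes of GRCm38.p6, which named 23374 probes. Other genes than the members were represented by their brightest probe. Groups and replicate numbers came from the sample titles. Tests were two-sided, using the limma package (3.58.1, R 4.3.3; lmFit with 3 group means, eBayes), and the scripts were tested on simulated data. Intervals are at 95%. The number of arrays limits the precision.

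The members and the 13 gene lists were chosen with earlier results of these data known. All member probes are reported, and of each list up to 4 called genes with the largest difference per comparison against EV, together with the 3 genes nearest to each member. Some list genes that this rule names are not reported here. Kdm1a, Rcor2, Hba-a1 and Hbb-bt were named after their values were seen. The alternatives were the replicate number or the slide as a block, normexp with an offset of 50 (on the median signal, since no mean signal was in the files), quantile normalization, scaling to the median, 2 other filters, outlier spots retained, eBayes with its trend and robust options, fits of the compared groups alone, the deposited table, and each array left out.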

Additional observations from a re-analysis of the deposited data

How the results depend on the processing

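Klf1 and Gfi1b in Gata2 KD against EV, and Klf1, Gfi1b, Gata1 and Zfpm1 in Gata2 KD against Pu.1 KD, were called with the same sign under all 20 alternatives. The size of the Klf1 fall against EV varied: it was -1.18 with normexp and -1.40 with the deposited values, beside -1.76 as reported. Scaling to the median left 2 member probes called in Gata2 KD against EV, with Gata1 at -1.04 (adjusted p 0.0771). There it also lowered the count over all probes to 1203 and raised the share of higher probes among the called from 57.0% to 69.7%. The Klf1 call in Pu.1 KD against EV was lost, leaving 0 member probes called, with the replicate block (adjusted p 0.0684), scaling to the median (0.0657) and only the groups compared in the fit (0.081), while the trend and robust settings called 2, adding Zfpm1 (adjusted p 0.0232). With arrays left out in turn, Gata1 in Gata2 KD against EV ran from -1.17 to -0.97, the member probes called from 3 to 4 there and from 0 to 1 in Pu.1 KD against EV, and the probes called from 1070 to 1704, from 278 to 825 in Pu.1 KD against EV and from 2207 to 3945 between the knockdowns. The cause of these changes was not tested, except that leaving out an array leaves fewer samples.

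Over all probes, the count in Gata2 KD against EV was 1172 with the replicate block, 2886 with slide as a block and 1114 with only the groups compared. In Pu.1 KD against EV it was 234 with the replicate block, 1875 with slide as a block, 377 with scaling to the median, 1575 with trend and robust settings, 1785 with the deposited log2 values and 223 with only the groups compared, and between the knockdowns 2259 with scaling to the median. Whether the replicate numbers pair the samples is not stated and was not tested. The deviations of same-numbered arrays correlated from -0.55 to 0.65 over 9 pairs, and those of arrays on the same slide from -0.04 to 0.72. Pairs that shared neither ran from -0.63 to 0.35. The first 2 ranges share some pairs, among them EV replicate 2 with Pu.1 KD replicate 2 at 0.65. Slide as a block changed no call of a member.

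Signs turned for 2 members near 0. Ldb1 in Gata2 KD against EV was -0.016 without EV replicate 3 and ran from there to 0.34 with arrays left out. Nfe2 in Pu.1 KD against EV was 0.0087 with normexp, 0.011 with quantile normalization, 0.033 with scaling to the median, 0.05 with the deposited values and -0.12 to 0.11 with arrays left out.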
